A study of Homo sapiens with 24 samples.

Results

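The 8 genes described here encode the 6 human DNA topoisomerases, *TOP1*, *TOP1MT*, *TOP2A*, *TOP2B*, *TOP3A* and *TOP3B*, and the tyrosyl-DNA phosphodiesterases *TDP1* and *TDP2*. They were chosen by name, with earlier results of these data known. A probe belonged to a gene when its RefSeq accession did. The study had already named *TOP2B* as the most connected protein in a network of genes changed on day 8. Those genes came from these same arrays, so that a day 8 call of *TOP2B* is not independent of that choice. The array carried 10 probes for the 8 genes, all 10 passed the filter on dim spots, and all 8 genes were among the 21239 genes tested. RNA was measured on 24 single-color Agilent arrays of 3D aggregates of LUHMES, an established line from human mesencephalon whose immortalization can be switched off, after which the cells turn into dopaminergic neurons. All aggregates were kept on a gyratory shaker in a medium with cAMP, GDNF, tetracycline and N2. Rotenone, an inhibitor of mitochondrial complex I, was given on day 7 at 50 nM for 12 h, 50 nM for 24 h or 100 nM for 24 h, and DMSO was given to the controls in the amount of the 100 nM dose. Aggregates were collected at the end of treatment (day 8) or after wash-out and recovery (day 15), with 3 samples in each of the 8 groups. Nothing in the labels or methods says that the 3 samples came from separate cultures, so that p values measure the spread between these samples, which may be technical.

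DNA topoisomerases relieve the twisting and tangling of DNA that transcription and replication produce, by cutting the DNA, holding the cut end on a tyrosine and closing it again. Type II enzymes cut both strands, type IB and IA enzymes cut 1 strand, and when an enzyme stays trapped on the DNA, TDP1 removes the topoisomerase I type of adduct and TDP2 the topoisomerase II type. Dividing cells use *TOP2A* to separate chromosomes, whereas neurons, which no longer divide, rely on *TOP2B*, which is known for its part in the transcription of long neuronal genes.

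Each slide held 1 array of every group at the same place, so that replicates 1 to 3 of a group are its arrays on slides 1 to 3, and group and place on the slide cannot be told apart. Between 67.3% and 82.4% of spots were well above background on slide 1, which the labels describe as repeated and in need of batch correction, against 50.9% to 62.5% on slides 2 and 3. All log2 signals below are after correction of slide 1, and differences within each slide, before that correction, are given beside them. The scan of day 15 DMSO replicate 1 does not name DMSO, so that its group rests on its label, and values without it are given where they change a call. All 10 neuronal markers were well above background on all 24 arrays, while 0 of 5 astrocyte markers and 0 of 4 microglia markers were, with a median of 9 and 3.5 arrays each. Of 4 oligodendrocyte markers 2, *MBP* and *MOG*, were well above background on all 24 arrays. Of 8 dopaminergic markers 6 were well above background on all 24 arrays, among them *TH*, the enzyme that makes the precursor of dopamine. The others, *FOXA2* and *SLC18A2*, were well above background on 17 and 3 arrays.

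With 100 nM rotenone on day 8, *TOP2B* was lower and *TOP1MT* higher than with DMSO, and these 2 were the members of the 8 that passed an adjusted p of 0.05 (limma, Benjamini-Hochberg over all genes). Over all genes, 9.48% passed the same test. Neither change reached the fold change of 1.5 that the study's methods also asked for, which 3.45% of all genes did. The median log2 fold change of the 8 genes was -0.12, against -0.02 over all genes, with 5 of the 8 negative. The same 2 genes were called in the same directions at 50 nM for 24 h, where 8.02% of all genes were called, and at 50 nM for 12 h, where 5.52% were. These 3 comparisons share the same DMSO samples. On day 15, none of the 8 genes was called in any of the 3 comparisons with DMSO, and 0% of all genes were. At an unadjusted p under 0.05, *TDP2* with 50 nM for 24 h was the sole member called on day 15, against 7.21% of all genes with 100 nM, 3.28% with 50 nM for 24 h and 3.47% with 50 nM for 12 h. The array data come from whole aggregates, so that fewer cells of a type and less RNA per cell cannot be told apart.

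**Figure D1:**
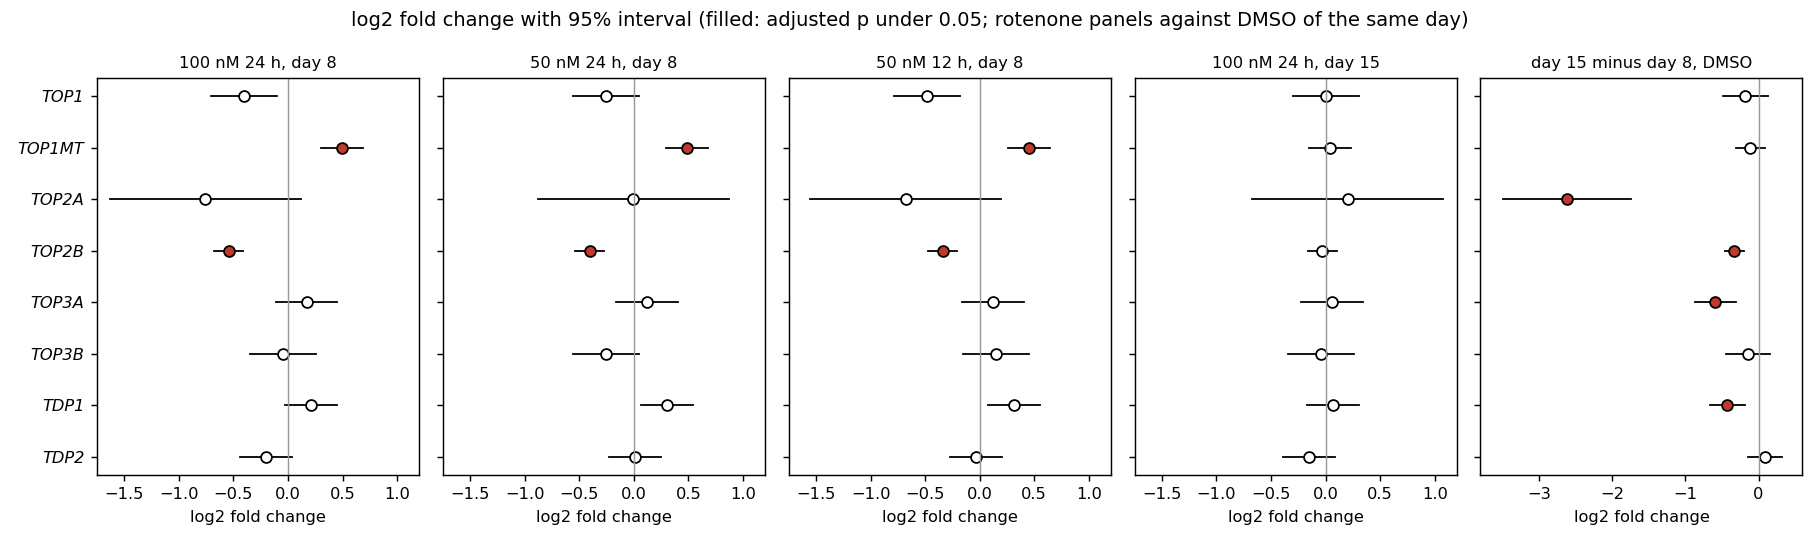
log2 fold changes of the 8 genes with 95% intervals in 5 comparisons, with filled points at an adjusted p under 0.05. *TOP2B* lies below 0 and *TOP1MT* above 0 in the 3 rotenone comparisons of day 8, no gene is filled with 100 nM on day 15, and between the days in DMSO, where the axis is wider, 7 of the 8 lie below 0 and 4 are filled.

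*TOP2B*, the type II topoisomerase of neurons, had the smallest SE of the 8 genes. Its probe was averaged over 10 spots, as was that of *TOP2A*, whereas each probe of the other genes had 1 spot. In DMSO on day 8 the *TOP2B* log2 signal was 12.65, 12.63 and 12.64 in replicates 1 to 3. It was 12.25, 12.29 and 12.37 after 50 nM for 12 h, and 12.26, 12.23 and 12.22 after 50 nM for 24 h. After 100 nM for 24 h it was 12.10, 12.04 and 12.16. All 9 rotenone samples of day 8 lay below all 3 DMSO samples. The mean fell from 12.64 ± 0.01 (SD, n = 3) in DMSO to 12.10 ± 0.06 at the higher dose, which is a log2 difference of -0.54 (SE 0.0635, 95% interval -0.68 to -0.41) or 0.686 times the DMSO level, with a limma adjusted p of 2.06e-05. At the lower dose *TOP2B* fell by 0.40 over 24 h (adjusted p = 0.000484) and by 0.34 over 12 h (adjusted p = 0.00317), both on the log2 scale.

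The difference was seen on every slide. Within slides 1, 2 and 3, *TOP2B* with 100 nM was lower than DMSO by a log2 difference of -0.56, -0.60 and -0.47. With 50 nM for 24 h these differences were -0.40, -0.40 and -0.42, and with 50 nM for 12 h they were -0.40, -0.34 and -0.26. With slides 2 and 3 alone, 2 arrays a group, the change with 100 nM was -0.53 (adjusted p = 0.0361), while those with 50 nM were -0.41 for 24 h (adjusted p = 0.103) and -0.30 for 12 h (adjusted p = 0.294). With no batch correction and no slide in the fit, the differences were nearly the same in size but the adjusted p was 0.082, 0.267 and 0.552 in the same order. Of 19 alternatives, the *TOP2B* call was lost under 1 with 100 nM, 3 with 50 nM for 24 h and 4 with 50 nM for 12 h. The single *TOP2B* probe was printed as 10 spots, was well above background on all 24 arrays and was saturated on none, and the SD over its spots was 0.11 to 0.23 on the log2 scale.

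The 3 samples with 100 nM lay below the 3 with 50 nM for 24 h, at a difference of -0.14 (95% interval -0.27 to -0.0049) that did not pass the adjustment (limma adjusted p = 1). Of the 8 genes, 3 did not overlap between these doses (*TOP2B*, *TOP3B* and *TDP2*), against 11.1% of all genes. For *TOP3B* this held for the mean of its 2 probes and for neither probe alone. No gene of the 21239 was called between the doses by limma, 0% of those tested, and at an unadjusted p under 0.05 *TOP2B* was the sole member called, against 4.17% of all genes. Between 24 h and 12 h of 50 nM, *TOP2B* differed by -0.07 (95% interval -0.20 to 0.07, adjusted p = 0.807), 0 of the 8 genes were called by limma and 0.537% of all genes were. At an unadjusted p under 0.05 *TOP3B* was the sole member called there, against 10.9% of all genes.

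On day 15 the *TOP2B* signal no longer separated the groups. It was 12.27, 12.28 and 12.38 in DMSO and 12.21, 12.35 and 12.28 after 100 nM, and the groups overlapped. The 2 groups with 50 nM had means of 12.31 ± 0.02 (12 h) and 12.30 ± 0.02 (24 h). The difference between 100 nM and DMSO was -0.03 (95% interval -0.16 to 0.10, adjusted p = 0.947), and it had the opposite sign without day 15 DMSO replicate 3 (0.0063) or without day 15 100 nM replicate 1 (0.014). The change on day 15 differed from that on day 8 by 0.51 (SE 0.0898, adjusted p = 0.00335), a test that 2.44% of all genes passed and *TOP2B* alone among the 8. This call was lost under 5 alternatives: on slides 2 and 3 alone (adjusted p = 0.277), with scaling to the 75th percentile in place of quantile normalization (0.111), with the scanner software's processed signal (0.0789), with no batch correction (0.625) and with the arrays of these 4 groups alone (0.0863). In DMSO itself *TOP2B* was lower on day 15 than on day 8 by a log2 difference of -0.33 (adjusted p = 0.000743), with -0.38, -0.36 and -0.25 within the slides and an adjusted p of 0.093 on slides 2 and 3 alone. This difference between the days lost its call under 3 of 19 alternatives, with a limma adjusted p of up to 0.23. The DMSO samples of day 8 were the highest of the 24 arrays, and all others lay between 12.04 and 12.38.

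**Figure D2:**
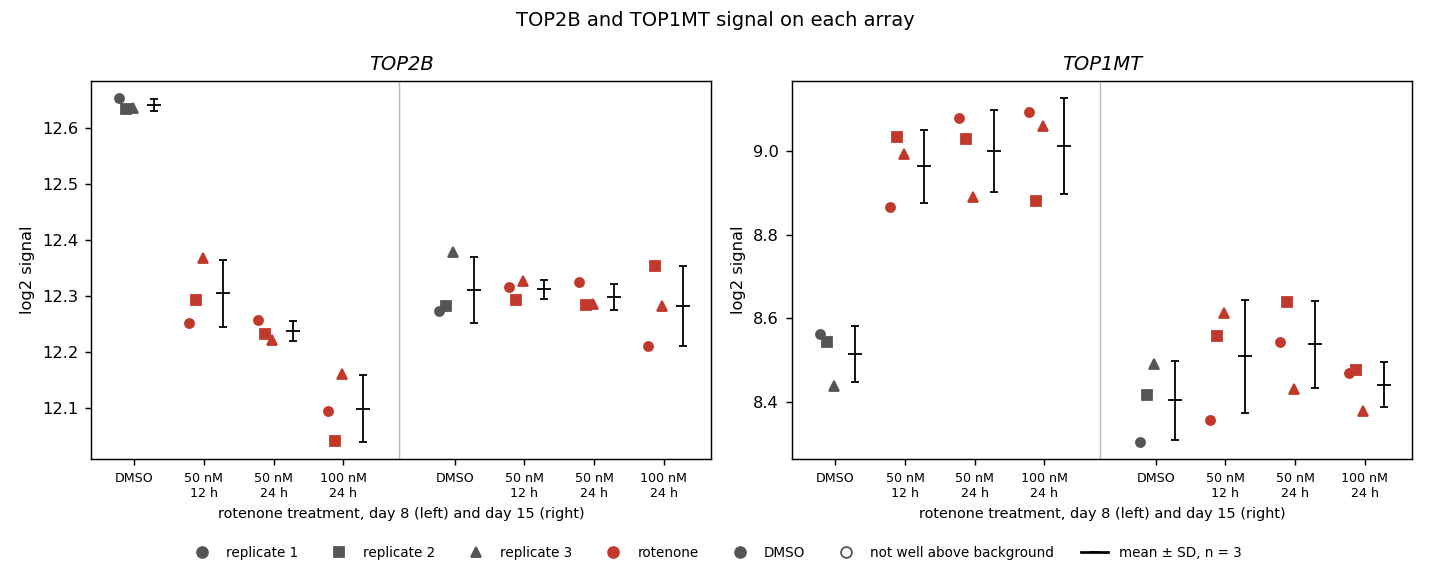
log2 signal of *TOP2B* (left) and *TOP1MT* (right) on each array, by day and treatment, with a symbol for each replicate and black bars for the mean ± SD of 3. The 3 *TOP2B* points of day 8 DMSO stand near 12.64, above all others, and the 9 *TOP1MT* points of rotenone on day 8 stand between 8.87 and 9.09, above all others.

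*TOP1MT*, the type IB topoisomerase of mitochondria, which works on mitochondrial DNA, moved the other way. Its log2 signal in DMSO on day 8 was 8.56, 8.54 and 8.44. It was 8.87, 9.03 and 8.99 after 50 nM for 12 h, 9.08, 9.03 and 8.89 after 50 nM for 24 h, and 9.09, 8.88 and 9.06 after 100 nM. All 9 rotenone samples lay above the DMSO samples, and the 3 rotenone groups overlapped one another. The log2 fold change was 0.50 with 100 nM (SE 0.0913, 1.41-fold, adjusted p = 0.00146), 0.49 with 50 nM for 24 h (adjusted p = 0.00218) and 0.45 with 50 nM for 12 h (adjusted p = 0.0058). Within the slides the difference with 100 nM was 0.53, 0.33 and 0.63. With slides 2 and 3 alone it was 0.48 and no longer passed (adjusted p = 0.106), nor did it with no batch correction (0.50, adjusted p = 0.176) or with the arrays of both groups alone (adjusted p = 0.0506). Both 50 nM calls were lost under the same 3 alternatives, with an adjusted p of 0.129, 0.209 and 0.0564 for 24 h and of 0.125, 0.353 and 0.114 for 12 h.

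The 12 day 15 samples of *TOP1MT* lay between 8.30 and 8.64. They were 8.30, 8.42 and 8.49 in DMSO and 8.47, 8.48 and 8.38 after 100 nM, which overlapped, with a difference of 0.04 (95% interval -0.15 to 0.23, adjusted p = 0.953). Without day 15 DMSO replicate 1 this difference was -0.023. The change with 100 nM on day 15 minus that on day 8 was -0.46, which did not pass the adjustment (limma adjusted p = 0.0673). It passed under 5 of 25 alternatives, with an adjusted p down to 0.0265. Among the 5 was the fit without day 8 100 nM replicate 2 (-0.53, adjusted p = 0.0455). In DMSO, *TOP1MT* differed between the days by -0.11 (adjusted p = 0.444). *TOP1MT* was read by 1 probe and 1 spot, well above background on all 24 arrays.

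**Figure D3:**
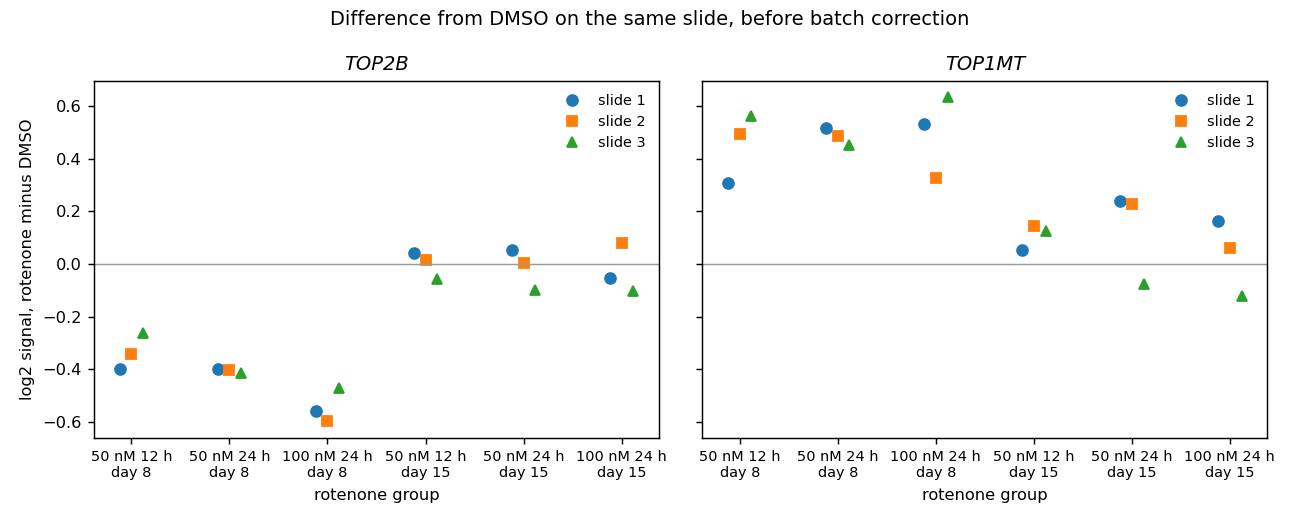
Difference in log2 signal between each rotenone group and DMSO on the same slide, before batch correction, for *TOP2B* (left) and *TOP1MT* (right), with a symbol for each of the 3 slides. All 9 day 8 differences of *TOP2B* lie between -0.60 and -0.26 and all 9 of *TOP1MT* between 0.31 and 0.63, whereas those of day 15 lie on both sides of 0.

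The genes whose signal ran most like that of *TOP2B* over the 24 arrays, among 12883 genes well above background on all of them, were *SRSF10* (Pearson r = 0.945), *PPM1D* (0.901), *SMPD3* (0.894), *CASTOR3P* (0.869) and *CTTNBP2* (0.865). The most opposite were *RILPL1* (-0.899), *MICOS13* (-0.875) and *METTL25B* (-0.873). Arrays of a group share treatment and day, so these values describe the 8 groups more than 24 separate points. Within the 12 day 8 arrays the r with the 5 most like genes was 0.916 (*CASTOR3P*) to 0.972 (*SRSF10*). Within the 12 of day 15, where *TOP2B* varied little, it was 0.573 for *SRSF10*, 0.0642 for *PPM1D*, 0.422 for *SMPD3*, 0.286 for *CASTOR3P* and 0.733 for *CTTNBP2*, and -0.444 to -0.234 for the 3 most opposite. The r between *TOP2B* and *TOP1MT* was -0.843 on day 8 and 0.206 on day 15.

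*TOP2A*, the type II topoisomerase of dividing cells, was measured near the limit of the array. Its single probe of 10 spots was well above background, in most of its spots, on 11 of the 12 day 8 arrays and on 0 of the 12 day 15 arrays. On day 8 its log2 signal was 7.06, 5.65 and 5.82 in DMSO and 4.91, 5.70 and 5.89 after 50 nM for 12 h. It was 5.63, 7.11 and 5.77 after 50 nM for 24 h, and 6.22, 5.41 and 4.63 after 100 nM, where the last was not well above background. The groups overlapped, and single samples near 7 stood out in DMSO and in 50 nM for 24 h. The difference between 100 nM and DMSO was -0.76 (SE 0.417, 95% interval -1.63 to 0.12, adjusted p = 0.335), with -0.83, -0.20 and -1.23 within the slides. It ranged from -1.24 to -0.22 when 1 of the 6 arrays was left out, and a difference of this size was not detectable at this spread. With 50 nM for 12 h the difference was -0.68 (adjusted p = 0.472), and 0.11 on slides 2 and 3 alone.

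Between day 8 and day 15 in DMSO the *TOP2A* signal fell. The day 15 DMSO samples were at 3.22, 3.72 and 3.74, none well above background, and all lay below the 3 of day 8. The mean over the 3 day 8 arrays was 5.49-fold above the dimmest signals still well above background on the day 15 arrays. This is not a lower limit of the fall, since a *TOP2A* value of 4.63, day 8 100 nM replicate 3, was itself not well above background. The measured difference was -2.62 (adjusted p = 0.00012), and -3.88, -1.88 and -2.06 within the slides. Its size depends on how dim values are treated, from -0.99 with an offset of 50 to -4.37 with the scanner software's own background subtraction, with an adjusted p of 0.00101 and 0.000154.

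Markers of proliferation moved with it. Of 20 listed, 19 were tested, all 19 were lower on day 15 than on day 8 in DMSO, and 16 passed. Over all genes 23.2% were called and 13.2% were called lower. The median log2 fold change of the 19 was -1.34, against -0.04 over all genes. Only 10 of the 19 were well above background on all 24 arrays, so that the size of some falls depends on dim values. *AURKB*, *BUB1* and *RRM2* were well above background on 0 of the day 15 DMSO arrays. Named by the smallest p were *MCM5* (-0.95) and *MCM3* (-0.61), parts of the helicase that opens DNA for replication, and *CENPF* (-1.95), a protein of the centromere. The summed signal of the 19 ranged from 4549 to 6503 in day 8 DMSO and from 2860 to 3296 in day 15 DMSO, and its highest day 8 DMSO and 50 nM 24 h values, 6503 and 5814, were on the same arrays as the *TOP2A* values near 7. With 100 nM on day 8 the sum was 4056 to 5031, 18 of 19 markers were negative, the median was -0.22, and 0 passed, against 9.48% of all genes. Their part in the *TOP2A* values was not tested.

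The genes most like *TOP2A* over 24 arrays, among 15612 genes well above background on at least 12, were *CLPTM1L* (r = 0.979), *BIRC5* (0.976), *NDC80* (0.969), *E2F1* (0.969) and *KIF2C* (0.968). The arrays fall into the 2 days here, and within day 8 the r with *BIRC5* was 0.936 and with *E2F1* 0.968. Within day 15, where *TOP2A* was not well above background, they were 0.506 and -0.0529. The r between *TOP2A* and *TOP2B* was 0.321 within day 8.

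The 250 bases before the annotated starts of both type II genes, from RefSeq (GRCh38.p14, minus strand, written 5′ to 3′), are shown side by side with 2 motifs, CCAAT and the CHR element, that are known from promoters of cell cycle genes. Capitals mark CCAAT on either strand (ATTGG on this one) and the CHR letters TTTGAA or TTCAAA.
*TOP2A*, chr17:40417897-40418146: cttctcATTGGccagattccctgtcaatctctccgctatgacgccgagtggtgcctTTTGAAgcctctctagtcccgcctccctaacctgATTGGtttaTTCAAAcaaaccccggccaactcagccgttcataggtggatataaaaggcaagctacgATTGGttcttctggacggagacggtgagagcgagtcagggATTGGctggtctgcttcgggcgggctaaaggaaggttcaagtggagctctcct
*TOP2B*, chr3:25664908-25665157: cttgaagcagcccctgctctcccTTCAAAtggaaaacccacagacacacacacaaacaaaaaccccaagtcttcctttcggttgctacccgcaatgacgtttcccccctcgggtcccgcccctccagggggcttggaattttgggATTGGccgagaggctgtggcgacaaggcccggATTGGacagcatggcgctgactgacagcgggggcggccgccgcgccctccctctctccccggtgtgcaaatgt
In *TOP2A*, CCAAT stood 4 times, with its first base at -244, -160, -93 and -53 from the start, and the CHR letters stood 2 times. In *TOP2B*, CCAAT stood 2 times and the CHR letters 1 time. Both motifs do not overlap each other in either sequence. Over 35116 RefSeq promoter sequences of 300 bases (250 before the start, 50 after it), 34.6% held CCAAT at least once, 10.8% 2 times or more, and 15.2% held the CHR letters. Sequences were found for 7 of the 8 genes, and outside this pair CCAAT was in none of their windows, while the CHR letters were in that of *TDP1*. Of the genes most like *TOP2A*, *CLPTM1L* and *KIF2C* held neither motif, *NDC80* held the CHR letters alone and *E2F1* CCAAT alone. A second *TOP2B* window, at another annotated start, held neither motif. A match says only that these letters are there.

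*TOP1*, the type IB topoisomerase of the nucleus, which relaxes DNA ahead of transcription, had lower values with rotenone on day 8, none of which passed the test. Its log2 signal was 8.91, 8.61 and 8.49 in DMSO and 8.23, 8.21 and 8.12 after 50 nM for 12 h. It was 8.37, 8.56 and 8.33 after 50 nM for 24 h and 8.17, 8.46 and 8.17 after 100 nM. The 50 nM 12 h and the 100 nM samples lay below all DMSO samples, whereas those of 50 nM for 24 h overlapped them. Both gaps held for the mean of the 2 probes and for the brighter probe, while the dimmer probe overlapped DMSO in both. The differences were -0.41 with 100 nM (SE 0.144, adjusted p = 0.0909), -0.49 with 50 nM for 12 h (adjusted p = 0.0559) and -0.25 with 50 nM for 24 h (adjusted p = 0.379), and *TOP1* was below DMSO on all 3 slides in each of them. The difference with 50 nM for 12 h passed under 7 of 19 alternatives, with a limma adjusted p down to 0.00954. Among these were slide fitted as a block with no batch corrected (-0.47, adjusted p = 0.0276) and the fit without day 8 DMSO replicate 3 (-0.58, adjusted p = 0.0487). With 100 nM the difference passed under 1 of 19 (adjusted p = 0.0225). The 2 *TOP1* probes were alike with 100 nM (-0.42 and -0.39) but less so with 50 nM for 24 h (-0.12 and -0.38). On day 15 the 4 group means lay between 8.42 and 8.54, and in DMSO *TOP1* differed between the days by -0.18 (adjusted p = 0.428).

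*TOP3A* and *TOP3B* are the type IA enzymes, which pass single strands and untangle joined DNA molecules: TOP3A works with BLM, RMI1 and RMI2 in the nucleus and also in mitochondria, and TOP3B with TDRD3, on RNA as well. *TOP3A* was at 7.25, 7.48 and 7.39 in day 8 DMSO and at 7.74, 7.45 and 7.44 after 100 nM, which overlapped, with a difference of 0.17 (95% interval -0.11 to 0.45, adjusted p = 0.559) that was -0.0028 on slides 2 and 3 alone. In day 15 DMSO it was at 6.88, 6.90 and 6.57, below all day 8 DMSO samples, a fall of -0.59 (SE 0.134, adjusted p = 0.00316). Within the slides it was -0.37, -0.58 and -0.84, and with no batch correction it was -0.60 (adjusted p = 0.0627). All 12 day 8 arrays (7.25 to 7.74) lay above all 12 day 15 arrays (6.57 to 7.11).

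*TOP3B* showed no call in any comparison. Its day 8 DMSO samples were close together, at 7.74, 7.70 and 7.71, but those after 50 nM for 12 h were at 8.23, 7.83 and 7.52. After 50 nM for 24 h they were at 7.28, 7.58 and 7.53, all below DMSO, with a difference of -0.25 (adjusted p = 0.373). Between 24 h and 12 h of 50 nM the difference was -0.40 (adjusted p = 0.272), and it passed without the 12 h replicate 3 (-0.59, adjusted p = 0.0381). The 2 probes of *TOP3B* disagreed, with 0.35 and -0.05 for 50 nM over 12 h against DMSO and -0.08 and -0.42 over 24 h. Over 24 h each probe alone overlapped DMSO.

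*TDP1*, which frees DNA ends from trapped topoisomerase I in the nucleus and in mitochondria, had higher values in all 3 rotenone groups of day 8, none of which passed the test. Its log2 signal was 9.39, 9.30 and 9.35 in DMSO. It was 9.73, 9.52 and 9.74 after 50 nM for 12 h, 9.62, 9.65 and 9.68 after 50 nM for 24 h, and 9.47, 9.51 and 9.69 after 100 nM. All 9 rotenone samples lay above the 3 DMSO samples. The differences were 0.32 (adjusted p = 0.13), 0.30 (adjusted p = 0.125) and 0.21 (adjusted p = 0.324) in that order, and positive on all 3 slides in each. With the slide as a block both 50 nM differences passed, at 0.31 (adjusted p = 0.0495) for 12 h and 0.31 (adjusted p = 0.0427) for 24 h. Each passed under 3 of 19 alternatives in all, with a limma adjusted p down to 0.028 for 12 h and 0.0263 for 24 h. In DMSO *TDP1* was lower on day 15, at 8.81, 8.79 and 9.16, by a difference of -0.43 (adjusted p = 0.00949), which no longer passed without day 15 DMSO replicate 1 (-0.36, adjusted p = 0.0573) or replicate 2 (-0.36, adjusted p = 0.0544). On slides 2 and 3 alone it was -0.35 (adjusted p = 0.277).

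*TDP2*, which frees DNA ends from trapped topoisomerase II, passed in no comparison. On day 8 it was at 10.26, 10.25 and 10.08 in DMSO and at 9.94, 10.09 and 9.95 after 100 nM. The difference was -0.20 (95% interval -0.44 to 0.04, adjusted p = 0.356), below 0 on all 3 slides. On day 15 it was at 10.13, 10.27 and 10.44 in DMSO and at 10.25, 9.94 and 9.85 after 50 nM for 24 h, which overlapped, with a difference of -0.27 (limma adjusted p = 1).

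**Figure D4:**
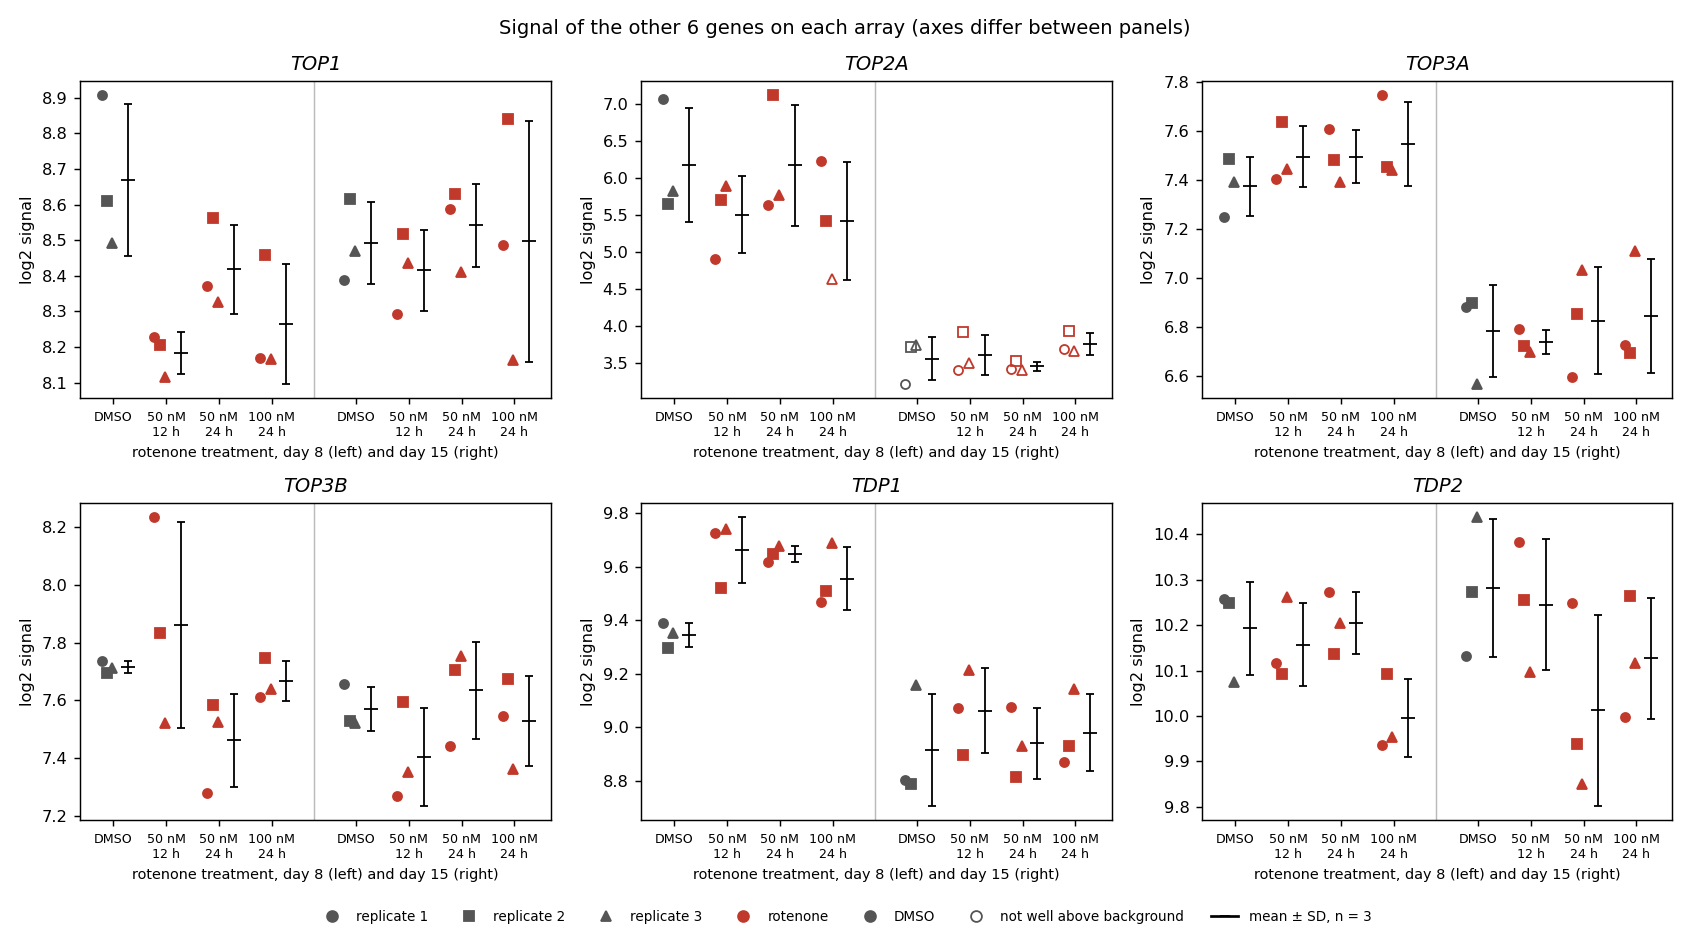
log2 signal of the other 6 genes on each array, by day and treatment, with open symbols where the gene was not well above background and black bars for the mean ± SD of 3. The *TOP2A* panel shows all 12 day 15 arrays open, below 3.93, and the *TOP3A* panel shows all day 15 arrays below those of day 8.

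On day 8, 4 of the 8 genes had rotenone and DMSO samples that did not overlap with 100 nM (*TOP1*, *TOP1MT*, *TOP2B*, *TDP1*), against 28.5% of all genes. With 50 nM for 24 h there were also 4, with *TOP3B* in place of *TOP1*, against 28.1%. The gap of *TOP3B* was in the mean of its 2 probes, each of which overlapped when taken alone. With 50 nM for 12 h it was *TOP1*, *TOP1MT*, *TOP2B* and *TDP1*, against 23.6%. In both comparisons that count *TOP1*, its dimmer probe, taken alone, overlapped DMSO. On day 15, 0 of 8 did in each comparison, against 7.83%, 7.15% and 7.42% in the order of 100 nM, 50 nM for 24 h and 50 nM for 12 h. Between the days in DMSO 5 of the 8 did not overlap, against 40% of all genes. Of these 5, *TOP2A*, *TOP2B*, *TOP3A* and *TDP1* were called and *TOP3B* was not. The 4 called were all lower on day 15, where 23.2% of all genes were called and 13.2% were called lower. Of the 4, *TOP2A* and *TOP3A* exceeded a fold change of 1.5, as 12.2% of all genes did, and the median of the 8 genes was -0.25, against -0.04 over all genes.

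Of 12 listed genes that work with the topoisomerases, 11 were tested. With 100 nM on day 8, 1 rose and 2 fell, where 9.48% of all genes were called, and the median was -0.08, against -0.02 over all genes. *RMI1*, which holds TOP3A and BLM together, fell by 0.49 on the log2 scale (adjusted p = 0.00506), a call lost on slides 2 and 3 alone (-0.44, adjusted p = 0.162). It fell by 0.60 with 50 nM for 12 h (adjusted p = 0.00168), and its difference with 50 nM for 24 h was -0.26 (adjusted p = 0.158). *SMARCA4*, the motor of a chromatin remodeler, fell by 0.41 (adjusted p = 0.00889), a call lost without day 8 100 nM replicate 1 and under 5 of 13 other settings of the processing. Its difference ranged from -0.46 to -0.15 over all alternatives. *FXR1*, an RNA-binding protein, rose by 0.32 (adjusted p = 0.0452), a call lost when any 1 of the 6 arrays was left out. The helicase *BLM* differed by -0.12 (adjusted p = 0.876), *TDRD3* by -0.02 (adjusted p = 0.98) and *TWNK*, the helicase of mitochondrial DNA, by -0.11 (adjusted p = 0.811), and each of these 3 had the opposite sign under at least 1 alternative.

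Between the days in DMSO, 7 of the 11 partners fell and 0 rose, with a median of -0.40, where 23.2% of all genes were called. They were led by *RMI2* (-2.16), *TOPBP1* (-0.45) and *SMARCA4* (-0.40), with adjusted p of 6.41e-08, 0.000502 and 0.00382. *BLM* fell by 0.74 (adjusted p = 0.031), and *TDRD3* differed by -0.50 (adjusted p = 0.0914). *RMI1*, which also acts beside TOP3A, differed by 0.11 (adjusted p = 0.495).

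Condensin and cohesin, the ring complexes that fold and hold chromosomes, were listed with 14 genes. With 100 nM on day 8, 2 fell, 0 rose, and 12 of the 14 were negative, with a median of -0.24, where 9.48% of all genes were called. *NCAPG*, a condensin subunit, fell by 0.88 (adjusted p = 0.000158) and by 0.73 with 50 nM for 24 h (adjusted p = 0.00101). *NCAPD2*, another, fell by 0.33 (adjusted p = 0.041), a call lost when any of 5 of the 6 arrays was left out. From day 8 to day 15 in DMSO, *NCAPG2* (-1.55), *SMC4* (-1.30) and *STAG2* (-0.46) fell and none rose, 3 of 14 where 23.2% of all genes were called. The call of *STAG2* was lost without day 15 DMSO replicate 1 (-0.40, adjusted p = 0.0835) or without day 8 DMSO replicate 2.

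Of 23 genes that repair topoisomerase adducts and the breaks they leave, 3 rose with 100 nM on day 8 and 0 fell, where 9.48% of all genes were called, and the median of -0.02 was that of all genes. *RAD50*, a subunit of a complex that processes broken ends, rose by 0.52 (adjusted p = 0.00113), and by 0.57 and 0.66 with 50 nM for 24 h and 12 h. *ERCC1*, part of a nuclease, rose by 0.50 (adjusted p = 0.000337). Both calls remained when each of the 6 arrays was left out in turn, but not on slides 2 and 3 alone (adjusted p = 0.0697 for *RAD50* and 0.0522 for *ERCC1*), and that of *RAD50* not with no batch correction (adjusted p = 0.134). From day 8 to day 15 in DMSO, 6 of the 23 fell and 0 rose, with a median of -0.23, where 23.2% of all genes were called: those with the smallest p were *RBBP8* (-0.89), *LIG3* (-0.80) and *NHEJ1* (-0.64), which act in the trimming and joining of ends. The call of *NHEJ1* was lost without day 8 DMSO replicate 1 or day 15 DMSO replicate 3.

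Of 8 genes that copy or maintain mitochondrial DNA, beside which TOP1MT works, 0 were called with 100 nM on day 8, where 9.48% of all genes were. Their median was -0.04, against -0.02 over all genes. *POLG2*, the accessory subunit of the mitochondrial DNA polymerase, was the 1 called with 50 nM, higher by 0.30 after 24 h (adjusted p = 0.023) and by 0.29 after 12 h (adjusted p = 0.0411), and is named after its values were seen. Over all genes 8.02% and 5.52% were called there. Between the days in DMSO 2 of the 8 were called, where 23.2% of all genes were. *TFB2M*, a factor for mitochondrial transcription, and *TWNK* were lower on day 15 by -0.41 (adjusted p = 0.0153) and -0.52 (adjusted p = 0.0232). Without day 15 DMSO replicate 1 these were -0.25 (adjusted p = 0.137) and -0.43 (adjusted p = 0.107), and both calls were also lost without 1 or more of the day 8 DMSO arrays.

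Long neuronal genes were listed because TOP2B is known for a role in their transcription, and all 24, from 643 to 2474 kb long in RefSeq, were tested. With 100 nM on day 8, 4 fell and 1 rose, where 9.48% of all genes were called, and the median was -0.15, against -0.02 over all genes. Of the 24, 19 were negative, but only 12 of the 24 were well above background on all 24 arrays. *LRP1B*, a receptor, fell by 0.37 (adjusted p = 0.0106), a call lost without day 8 100 nM replicate 1. *NLGN1*, a synaptic adhesion protein, fell by 0.45 (adjusted p = 0.0278), and *KCNIP4*, a modulator of potassium channels, rose by 0.78 (adjusted p = 0.0258). These last 2 calls were lost when any of 4 or of 5 of the 6 arrays was left out. With 50 nM for 24 h, 3 fell and 1 rose, where 8.02% of all genes were called. With 50 nM for 12 h 0 were called, where 5.52% of all genes were, and the median was 0.00.

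Between the days in DMSO the long genes moved both ways, while *TOP2B* fell. In that comparison 7 of the 24 rose and 4 fell, with a median of 0.24, where 23.2% of all genes were called. *LRP1B* (1.65) and *CSMD1* (1.13) were among those that rose, and *KCNIP4* (-2.06), *PTPRD* (-0.77) and *AUTS2* (-0.39) were among those that fell. The call of *AUTS2* was lost without day 15 DMSO replicate 1 (-0.37, adjusted p = 0.0569) and without day 8 DMSO replicate 2 or 3.

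Of 10 neuronal markers listed and tested, 3 fell with 100 nM on day 8 and 0 rose, where 9.48% of all genes were called, and 3 were positive. Those that fell were *MAP2* (-0.57) and *ELAVL4* (-0.51), with adjusted p of 0.00281 and 0.00724, and *SNAP25* (-0.30, adjusted p = 0.0407), whose call was lost without any 1 of the 6 arrays. The calls of *MAP2* and *ELAVL4* were each lost under 3 of 13 other settings of the processing. Over all alternatives the difference of *MAP2* ranged from -0.64 to -0.20 and that of *ELAVL4* from -0.57 to -0.44. The summed signal of the 10 weighs the brightest most, *TUBB3*, *STMN2*, *NEFL* and *NEFM*, none of which was called with 100 nM. This sum was 275500 to 319900 in day 8 DMSO and 270300 to 274100 with 100 nM. These ranges did not overlap, but the lowest DMSO sum and the highest 100 nM sum were close and both in replicate 3. The sum was 256800 to 291600 with 50 nM for 24 h and 274600 to 302200 with 50 nM for 12 h, which both overlapped DMSO. In these comparisons 2 and 0 of the 10 were called, all lower, against 8.02% and 5.52% of all genes, while *TOP2B* was called in both. In day 15 DMSO the summed signal was 317700 to 357600. Between the days in DMSO, where 23.2% of all genes were called, 3 rose, among them *NEFL* (0.52) and *ELAVL4* (0.45), and *MAP2* fell by 0.46, while *TOP2B* fell. Of 8 dopaminergic markers 0 were called with 100 nM on day 8, against 9.48% of all genes. Between the days, against the same 23.2%, *NR4A2* (1.57) was among the 3 that rose and *TH* (-2.94) and *SLC6A3* (-2.07) were the 2 that fell. The part of these markers in the *TOP2B* values was not tested.

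**Figure D5:**
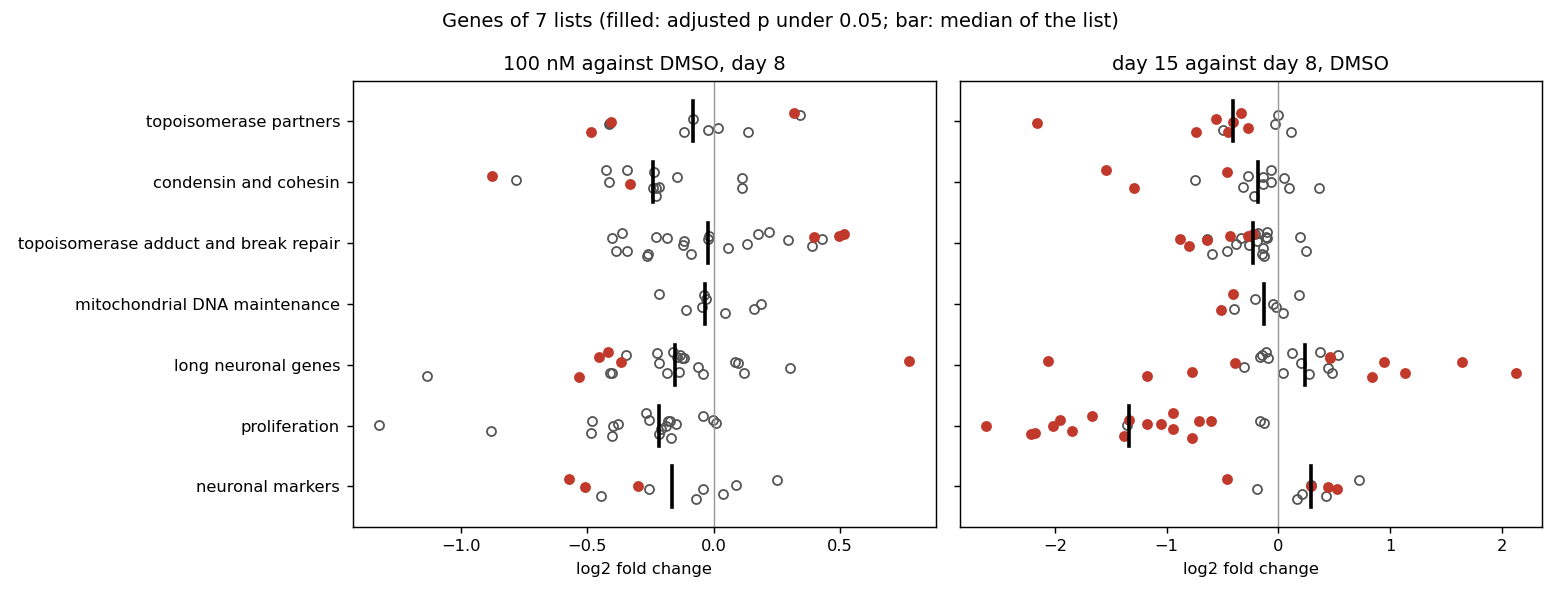
log2 fold change of each gene of 7 lists with 100 nM rotenone on day 8 (left) and between the days in DMSO (right), with filled points at an adjusted p under 0.05 and a bar at the median of each list. The medians lie between -0.24 and -0.02 on the left, and on the right proliferation has the lowest median, at -1.34.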

How the data were processed

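RNA of 24 samples was hybridized to single-color arrays. The authors deposited spot intensity values from Agilent Feature Extraction (11.5.1.1 for slides 1 and 3, 12.0.0.7 for slide 2), with local background and flags, and a table of normalized log2 values. Following the methods, median intensities were corrected with normexp (offset 0), quantile normalized and corrected for slide 1 with parametric ComBat (groups as covariates, rewritten and tested on simulated data). A spot was kept when, on at least 3 arrays, it exceeded the negative controls' 95th percentile by a factor of 1.1, flagged values were set to missing, and spots and then probes of a gene were averaged, which left 21239 genes. Accessions were matched without version to RefSeq (GRCh38.p14), and 30275 of 50599 probes got a name. The array's design uses another build, so that only promoter coordinates are given.

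Groups were compared with lmFit and eBayes of limma 3.58.1 (R 4.3.3, data.table, version 1.17.8) in 1 fit of all arrays, with two-sided p values, Benjamini-Hochberg adjustment over all genes, and 16 residual degrees of freedom, from which the ComBat step was not subtracted. Figures were drawn with matplotlib under Python. The number of arrays limits the precision, and levels of different probes were not compared.

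The replicate number is the slide. In 84 pairs of arrays with the same number, deviations from the group mean before batch correction correlated at 0.171 or more (median 0.458). In the 168 other pairs the median was -0.354, where negative values follow in part because deviations within a group cancel out. The numbers thus pair the arrays by slide, and whether they also pair cultures cannot be told. Beyond the correction of slide 1, the main fit had no term for slide. Alternatives were other signals, scalings, batch corrections, filters and summaries, and leaving out each array.

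The members and lists were chosen with earlier results of these data known. Of each list, up to 3 genes with the smallest p among those called in each direction were named, with *RMI1*, *BLM*, *TDRD3* and *TWNK* always, and the 5 genes most like and 3 least like *TOP2B* and the 5 most like *TOP2A*. *LMX1B*, *PITX3* and *GJA1* were called between the days by this rule, and lost the call without day 15 DMSO replicate 1 (0.61, 0.40 and -0.60, with an adjusted p of 0.167, 0.141 and 0.23). Some genes that this rule names are not reported here. Of 4 oligodendrocyte markers 0 were called.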

Additional observations from a re-analysis of the deposited data

Results flagged for a closer look

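The change of *TOP2B* with 100 nM rotenone differed between the days. The log2 difference from DMSO was -0.54 on day 8 and -0.03 on day 15, and the difference between these, 0.51, passed the test of the difference itself (limma adjusted p = 0.00335). It was positive on all 3 slides, at 0.50, 0.68 and 0.37, and between 0.48 and 0.56 when each of the 12 arrays was left out in turn. It was 0.40 with the scanner software's processed signal (adjusted p = 0.0789) and with scaling to the 75th percentile (0.40, adjusted p = 0.111), 0.52 on slides 2 and 3 alone (adjusted p = 0.277), 0.52 with no batch correction (adjusted p = 0.625) and 0.51 with the arrays of these 4 groups alone (adjusted p = 0.0863), and passed in none of these 5.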

How the results depend on the processing

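With the replicate number as a block in place of ComBat, 2, 3 and 4 members were called on day 8 with 100 nM, 50 nM for 24 h and 50 nM for 12 h, 4 between the days in DMSO and 1 for the difference between the days, where 10.2%, 8.66%, 6.06%, 24.3% and 2.75% of all genes were. Beyond *TOP1* and *TDP1* it changed no member's call. Of the alternatives, 4 members were also called at 50 nM for 12 h with the processed signal and with the deposited values. Without batch correction 0 were called in the 3 day 8 comparisons and for the difference between the days, and 1 between the days in DMSO, where 2.97%, 2.26%, 1.14% and 0.412% of all genes were, and 2449 of 21344 between the days. On slides 2 and 3 alone these counts were 1, 0, 0, 0 and 2 (1.13%, 1.07%, 0.232%, 0.0493% and 9.16% of all genes), and with the arrays of the groups compared alone, with fewer arrays to estimate the spread, 1, 0, 0, 0 and 2 (3.8%, 2.7%, 0.32%, 0.527% and 18.7%). For the difference between the days, 2 were called with an offset of 50, with the deposited values and with the filter on probes well above background, and 0 with scaling to the 75th percentile. The cause of these changes was not tested. On day 15 and between the doses, 0 were called under every alternative.

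Leaving out 1 array gave 2 to 2 calls with 100 nM and with 50 nM for 24 h on day 8, 2 to 3 with 50 nM for 12 h, 3 to 4 between the days in DMSO, 1 to 2 for the difference between the days (2 without day 8 100 nM replicate 2), and 0 to 1 between 24 h and 12 h (1 without the 12 h replicate 3).

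Signs turned, for differences that were not called, on slides 2 and 3 alone in *TOP1MT* with 100 nM on day 15 (-0.032), *TOP1* between the days (0.0042), *TOP3A* with 100 nM on day 8 (-0.0028), *TOP2A* with 50 nM for 12 h (0.11), and *BLM* (0.061) and *TDRD3* (0.13) with 100 nM on day 8. *TDRD3* also turned with the processed signal (0.25), the 75th percentile (0.047), the deposited values (0.063), the block and no batch correction (0.0088 in both). Leaving out 1 array gave -0.14 to 0.11 for *TDRD3*, -0.22 to 0.035 for *TWNK* and -0.20 to 0.017 for *BLM* with 100 nM on day 8, and -0.064 to 0.014 for *TOP2B* and -0.023 to 0.084 for *TOP1MT* on day 15. The processed signal moved the median of all genes with 100 nM on day 8 to 0.10. Of 45 calls named from the lists, 16 were lost without at least 1 array and 1, *GJA1*, with the block. Under at least 1 of the other 13 settings, all 15 of the calls with 100 nM and 18 of the 30 between the days were lost.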
